A study of Homo sapiens with 4 samples.

Results

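HuH7-F6 is a population of human liver cancer cells that had passed through 6 rounds of drug treatment and regrafting in mice, and it was compared here with the parental HuH7 cells, HuH7-F0. The comparison rests on 1 F6 array and 2 parental arrays, F0 (1) and F0 (2), which were kept apart. A gene was described when its log2 signal was at least 6 on F6 or on both F0 arrays and when F6 lay above or below both F0 arrays. Of 19775 genes, each read from 1 probeset, 9326 met the level rule, and 2387 of these were the members described here. F6 lay above both F0 arrays for 1605 of the 9326 genes (17.2%) and below both for 782 (8.39%). At least 2-fold beyond both were 108 genes above (1.16%) and 81 below (0.869%), and at least 4-fold beyond both were 11 above (0.118%) and 12 below (0.129%). The level rule admitted 2941 genes through F6 alone and 107 through the F0 arrays alone, and with no level minimum the 2-fold counts were 114 above and 111 below. The shares given first are the background against which the counts of each gene group are read.

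HuH7 is an established line from a human hepatocellular carcinoma. Per the treatment protocol in the labels, NOD/SCID mice carrying HuH7 tumors were given intraperitoneal JNJ-28841072, an inhibitor of VEGF receptors and aurora kinases. Tumors that resisted were cut up and grafted into further mice, 6 times for F6 and 12 times for F12. The phenotype label of F6 and F12 instead names a subclone with sorafenib resistance, and the 2 statements were not reconciled in the sources used here. F0 is labelled parental, with no treatment of its own named, and all RNA is said to come from tissue specimens. NOD/SCID mice have no working lymphocytes but keep their own vessels, fibroblasts and macrophages. No array in the series is labelled as tumor regrafted without drug, so drug exposure and regrafting cannot be told apart. The labels do not say whether F0 (1) and F0 (2) are separate cultures or tumors, or how many tumors F6 stands for.

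VEGF receptors carry growth signals into vessel-lining cells, and aurora kinases drive chromosome segregation in dividing cells. Hepatocellular carcinoma cells often keep a hepatocyte program of secreted plasma proteins and detoxifying enzymes, together with fetal liver genes, and many depend on Wnt and beta-catenin or on growth factor signalling through the MAPK cascade. In the liver, NF-kB and cytokine signals turn on neutrophil chemokines and acute phase proteins.

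The parental arrays differed widely. They were at least 2-fold apart for 6652 of the 9326 genes (71.3%), with a median gap of 1.56, and F6 lay between them for 6939 (74.4%). Probeset medians lay between 4.67 and 4.85 on the 4 arrays, so signals under 6 are taken as close to background, and a distance measured from such a signal is a limit. Centring each array on its median shifted the F6 minus F0 (1) difference of every gene by -0.131 and that from F0 (2) by -0.0006. Probeset upper quartiles were 6.33 on F0 (1), 6.96 on F0 (2) and 6.53 on F6, and centring does not level such differences. Hepatocyte and hepatoma markers matched the label: 10 of 12 were measured, and all 10 were at a log2 signal of at least 6 on F6. Markers of other cell types were mostly low. The arrays are human and the host is mouse, so how far these markers read host cells was not tested. At 6 or above on F6 were 2 of 12 endothelial markers, 1 of 12 fibroblast markers, 2 of 13 macrophage markers, 3 of 10 lymphocyte markers, 2 of 5 erythroid markers and 5 of 9 bile duct markers. In the bulk RNA of these specimens, fewer cells of a type and less RNA per cell cannot be told apart.

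**Figure D1:**
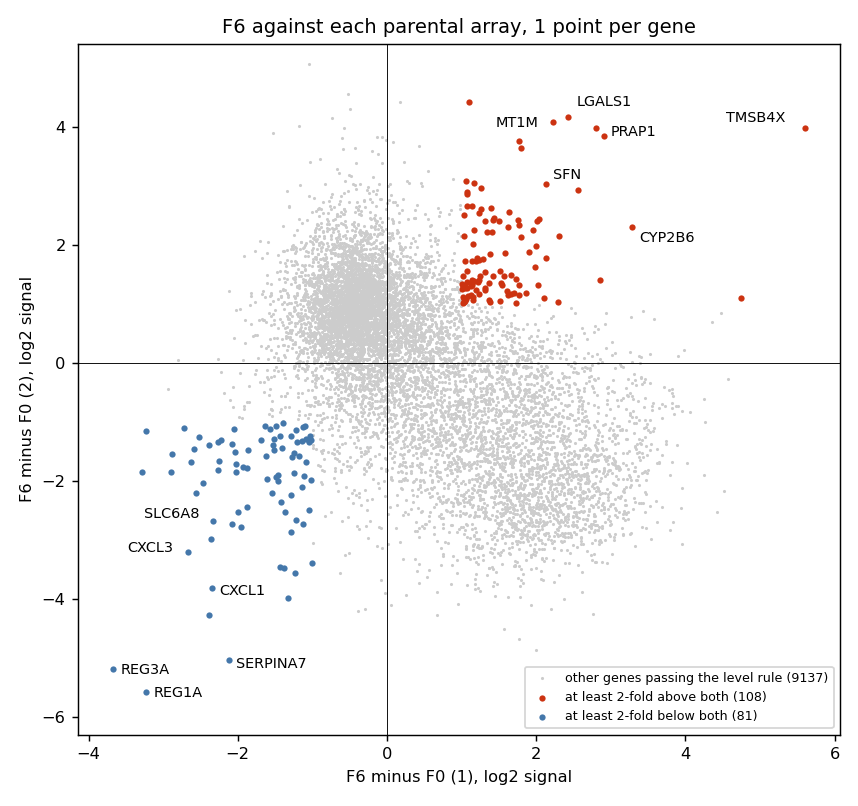
Log2 signal of F6 minus F0 (1) (horizontal) against F6 minus F0 (2) (vertical), 1 point for each of the 9326 genes passing the level rule. The 108 red points lie at least 2-fold above both parental arrays and the 81 blue points at least 2-fold below both; TMSB4X, at a distance of 3.98 from the nearer parental array, is the farthest above and REG3A, at -3.67, the farthest below.

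The genes farthest above both parental arrays encoded an actin-binding peptide, secreted and surface proteins, a drug-metabolizing cytochrome and a fetal liver transcription factor. TMSB4X encodes thymosin beta 4, which binds actin monomers. Its log2 signals were 7.56 on F0 (1), 9.19 on F0 (2) and 13.17 on F6, which is 15.8-fold over the nearer parental array. PRAP1, a secreted acidic protein of epithelia, stood at 6.71 and 5.77 on the parental arrays and 9.62 on F6, a distance of 2.91. CD7, a surface protein known from T and NK cells, stood at 5.43 and 4.25 against 8.23 on F6 and 5.32 on F12. Both parental signals of CD7 were close to background, and on F12 it lay within the parental range. Of the 10 lymphocyte markers measured, CD3D, CD79A and CORO1A were at 6 or above on F6, and each of the 3 lay between the parental arrays. The log2 signals of those 10 markers summed to 50.9 on F0 (1), 41 on F0 (2) and 48.1 on F6, and PTPRC, which marks all leukocytes, stood at 3.28, 2.59 and 3.09. The part of such cells in the CD7 signal was not tested.

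ICAM4, an adhesion molecule of red cells, stood at 5.13, 4.76 and 7.69, a distance of 2.56. Its parental signals were both close to background, so this distance is a limit. LGALS1, galectin-1, stood at 8.0, 6.25 and 10.42, and both parental values lay more than 4-fold below F6. CYP2B6, a cytochrome that oxidizes drugs and is induced through the xenobiotic receptor CAR, stood at 5.77, 6.76 and 9.05. The metal-binding protein MT1M stood at 4.82, 2.97 and 7.05, from parental signals close to background. Like TMSB4X, it has close copies whose transcripts its probes may also read. SFN, the p53-responsive adaptor 14-3-3 sigma, stood at 9.35, 8.45 and 11.48, and its 2 other probesets also lay above both parental arrays, by 2.16 and 0.85.

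In several of these genes the parental arrays lay close together, within 0.5 of each other. SALL4, a zinc finger factor of fetal liver and stem cells, stood at 7.28 and 7.29 on the parental arrays and 9.28 on F6. INSIG1, which retains the sterol sensor machinery in the endoplasmic reticulum, stood at 7.55, 7.15 and 9.58. One other INSIG1 probeset lay 1.59 above both and the other lay between them (4.56, 9.02 and 8.90). LOXL4, a collagen cross-linking oxidase, stood at 6.28, 6.00 and 8.24, but its other probeset lay between the parental arrays (6.64, 5.13 and 5.89). HSPA2, a member of the 70-kilodalton heat shock family, stood at 6.63, 7.00 and 8.77. PITRM1, a mitochondrial peptidase, stood at 6.63, 7.00 and 8.62, with a second probeset close to background on all 3 arrays (3.88, 3.95 and 3.71). SULT1C4, a sulfotransferase, stood at 5.21, 4.86 and 7.00, and BEX1 at 4.58, 4.19 and 6.59, from parental signals close to background. GTF2I, a general transcription factor, stood at 4.87, 5.02 and 7.18, also from parental signals close to background. The pseudogene NPEPPSP1 stood at 7.51, 7.54 and 9.41. GTF2I and NPEPPSP1 have near-identical copies in the genome, so their probes may read several loci.

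The genes farthest below both parental arrays encoded regenerating lectins, neutrophil chemokines, a creatine transporter, hepatocyte enzymes and immune surface proteins. REG3A, a secreted lectin and known beta-catenin target in liver tumors, stood at 8.08, 9.59 and 4.41, a distance of -3.67. A second REG3A probeset was close to background on all 3 arrays (4.01, 3.29 and 3.62), so the distance rests on 1 probeset. REG1A, its neighbour in the same gene cluster, stood at 7.44, 9.78 and 4.21. The other measured lectins of the family, REG1B, REG3G and REG4, were under 6 on all 3 arrays. LGALS14, a galectin known from placenta, stood at 6.70, 8.59 and 4.32. The esterase CES1 stood at 8.39, 9.01 and 6.03, and SERPINA7, thyroxine-binding globulin, at 6.19, 9.11 and 4.07.

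SLC6A8, which imports creatine, combined high and close parental signals (9.44 and 9.79) with 7.11 on F6, 5.03-fold under the nearer one. SYBU, an adaptor that links cargo to kinesin, stood at 7.50, 7.15 and 4.94, and PIGR, which carries IgA across epithelia, at 6.66, 7.31 and 4.58. The other PIGR probeset lay between the parental arrays (6.93, 5.21 and 5.93). HLA-DMB, a chain of the peptide loader for class II molecules, stood at 7.85, 7.43 and 5.39. ADGRV1, an adhesion receptor, stood at 7.30, 7.83 and 5.30, and PPP1R14C, a phosphatase inhibitor, at 7.13, 7.95 and 5.18. The other 4 ADGRV1 probesets were under 6 on all 3 arrays. COXFA4L3 stood at 6.54, 7.11 and 4.67, and PRR15L at 8.81, 7.78 and 5.92. On F6 all 7 of these genes other than SLC6A8 were under 6, close to background, so their distances are limits.

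Among genes with close parental arrays, F6 was also lower for the cytokine LIF (8.12, 7.95 and 6.19), the monoglyceride lipase MGLL (9.60, 9.42 and 7.57) and the glycolytic regulator PFKFB3 (8.99, 8.68 and 6.96). A second MGLL probeset also lay below both, at -1.69. IMMP1L, a mitochondrial inner membrane peptidase, stood at 8.83, 8.37 and 6.57, with a second probeset at -1.98. LGALS3BP, a secreted galectin ligand, stood at 7.17, 7.53 and 5.57. SLC43A3, a purine base transporter, stood at 9.80, 9.75 and 8.18, but its second probeset lay between the parental arrays (9.22, 6.63 and 7.68).

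**Figure D2:**
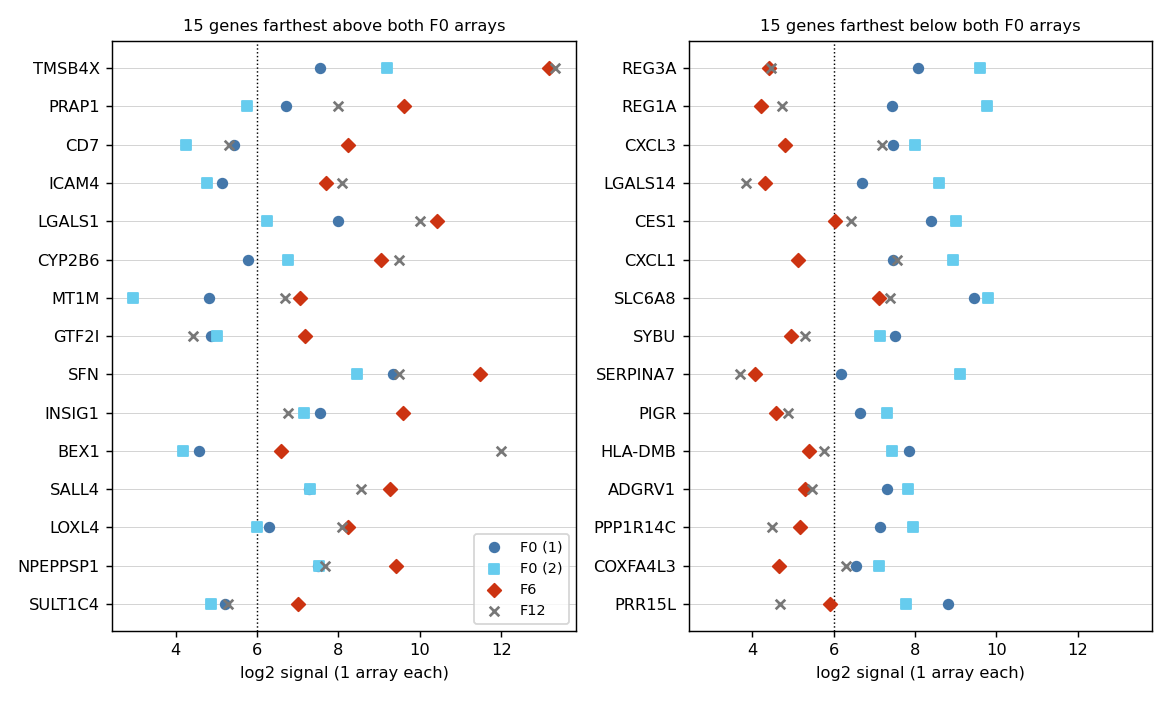
Log2 signal on each array for the 15 genes with the largest distance above (left) and below (right) both parental arrays, 1 point per array, with the dotted line at 6. In each row the F6 diamond lies outside both parental points; F12 (cross) is shown for reference and lies among the parental points for CD7 and CXCL1, for example.

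More chemokine and cytokine genes lay below the parental pair on F6 than above it. Of 16 NF-kB and cytokine genes passing the level rule, 9 lay below both parental arrays and 2 above, against 8.39% and 17.2% of all genes. The median F6 difference over the 25 measured members was -0.55 from F0 (1) and -0.22 from F0 (2), beside -0.20 and 0.33 over all 19775 genes, and centring left the counts at 9 and 2. At least 2-fold below both were the neutrophil attractants CXCL1 and CXCL3 and the siderophore-binding protein LCN2. CXCL3 stood at 7.45, 8.0 and 4.79 and CXCL1 at 7.46, 8.94 and 5.12. Both chemokines were close to background on F6 alone, and on F12, which is set against the same parental arrays, they stood at 7.20 and 7.55. LCN2 stood at 7.49, 7.40 and 5.61, with parental arrays nearly equal.

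Smaller distances were seen for CSF1, the macrophage growth factor (8.37, 8.47 and 7.54), and for CCL20, a lymphocyte attractant (10.67, 13.38 and 10.16). CXCL8 (5.70, 7.07 and 4.14) did not meet the level rule, since it was under 6 on F0 (1) and F6. NFKB1 and NFKB2, which encode NF-kB subunits, lay above both by 0.17 and 0.14, and the inhibitor gene NFKBIA and the adhesion gene ICAM1 lay between the parental arrays. The chemokines CXCL5 and CX3CL1 lay below both by little, at -0.20 and -0.11, so the chemokines of the list were spread over a wide range of distances.

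The promoters of these chemokines are shown because they share a short kappaB-type sequence, the kind of site that NF-kB proteins bind. The windows below are from RefSeq on GRCh38.p14, 5′ to 3′ on the gene's strand, each within the 250 bases before the start site, with matches to GGAATNTCC in capitals. They lie at chr4:73869285-73869364 on the plus strand for CXCL1, chr4:74038718-74038797 on the minus strand for CXCL3, chr4:73740448-73740527 on the plus strand for CXCL8 and chr9:128149248-128149327 on the plus strand for LCN2.
CXCL1: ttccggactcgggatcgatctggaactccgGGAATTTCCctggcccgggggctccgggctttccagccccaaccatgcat
CXCL3: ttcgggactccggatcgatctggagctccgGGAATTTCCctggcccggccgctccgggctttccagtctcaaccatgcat
CXCL8: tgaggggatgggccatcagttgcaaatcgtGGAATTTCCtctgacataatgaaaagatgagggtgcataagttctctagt
LCN2: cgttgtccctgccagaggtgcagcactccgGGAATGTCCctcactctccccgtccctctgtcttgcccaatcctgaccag

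The match began 78 bases before the start site in both CXCL1 and CXCL3, 91 before that of CXCL8 and 175 before that of LCN2. The CXCL1 and CXCL3 windows were identical at 73 of 80 bases, whereas CXCL1 and CXCL8 shared 28 and CXCL1 and LCN2 shared 34. Searched on both strands of the 250 bases before each start site, GGAATNTCC occurred in 262 of 27305 promoters (0.96%), in 68 of 7651 genes passing the level rule (0.889%) and in 10 of 21 NF-kB and cytokine genes with a promoter in the table. Those 10 included NFKB1, which lay above both parental arrays, NFKBIA and ICAM1, which lay between them, and CXCL5, at -0.20, besides CXCL2 and CXCL6. Of genes at least 2-fold below both parental arrays, 4 of 64 held it (CXCL1, CXCL3, LCN2 and MUC13), and of genes at least 2-fold above, 1 of 75 (CGA). The list was drawn up around NF-kB, so its share of matches partly follows from that choice. CXCL1 and CXCL3 have near-identical windows, so their matches are not 2 separate readings. A match describes these letters only, and binding was not measured.

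The regenerating lectin pair is shown for comparison, with the TATAAA sequence in capitals, at chr2:79120420-79120479 on the plus strand for REG1A and chr2:79159763-79159822 on the minus strand for REG3A.
REG1A: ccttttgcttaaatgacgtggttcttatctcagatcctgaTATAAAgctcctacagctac
REG3A: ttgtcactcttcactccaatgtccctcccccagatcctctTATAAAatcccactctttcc

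TATAAA began 28 bases before the start site in REG1A and 29 before it in REG3A, and the 2 windows were identical at 27 of 60 bases. Searched on both strands of the 250 bases, TATAAA occurred in 3040 of 27305 promoters (11.1%) and in 400 of 7651 genes passing the level rule (5.23%). It occurred in 13 of 75 genes at least 2-fold above both parental arrays and in 7 of 64 at least 2-fold below. The letters of the 2 motifs do not overlap in the windows printed.

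Some antigen presentation, acute phase and complement genes also lay below both parental arrays. Of 20 interferon-stimulated and antigen presentation genes passing the level rule, 7 lay below both parental arrays and 2 above. For all genes the shares were 8.39% and 17.2%. The median difference of the 33 measured members was -0.71 from F0 (1) and 0.14 from F0 (2), so the list as a whole did not lie on 1 side. PSMB9, an immunoproteasome subunit, stood at 9.02, 7.69 and 6.14. HLA-DMA, the partner of HLA-DMB, stood at 8.01, 6.74 and 5.48, and the 3 genes PSMB9, HLA-DMB and HLA-DMA lie together on chromosome 6. The classical class I genes HLA-B and HLA-C and the interferon-stimulated gene ISG15 lay between the parental arrays.

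Beside shares of 8.39% below and 17.2% above over all genes, 5 of 10 acute phase genes passing the level rule lay below both and 0 above. The list medians were -0.36 from F0 (1) and -0.34 from F0 (2). The 5 were LBP, which carries bacterial lipopolysaccharide (6.36, 7.15 and 5.52), ORM1, SERPINA3, FGB and FGA, at distances from -0.84 to -0.24. Of 23 complement and coagulation genes, 9 lay below both and 5 above. CFB, factor B of the alternative complement pathway, stood at 7.92, 8.86 and 6.50, and C4BPB, a chain of a complement inhibitor, at 7.04, 6.62 and 5.55. On the other side were PROC, the anticoagulant protein C (7.29, 6.42 and 8.16), and SERPIND1, heparin cofactor, at a distance of 0.76. The medians of the 32 measured members were -0.10 from F0 (1) and -0.80 from F0 (2).

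**Figure D3:**
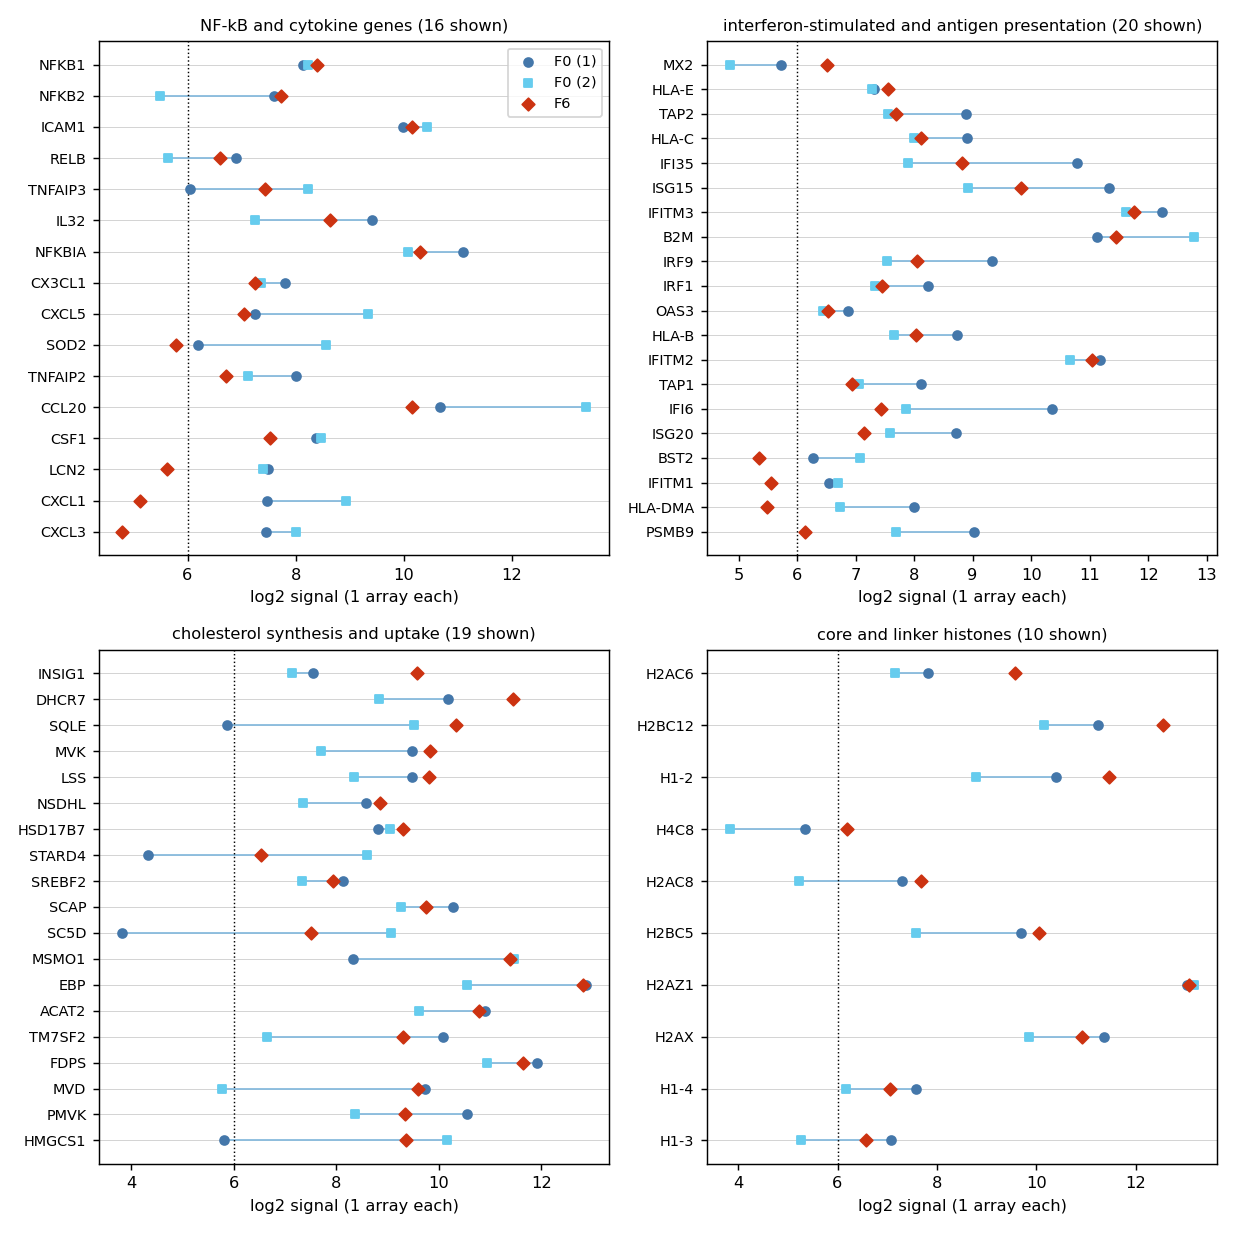
Log2 signal of every gene passing the level rule in 4 lists, with F0 (1) and F0 (2) joined by a line, F6 as a diamond and the dotted line at 6. F6 lies left of the parental pair for 9 of 16 NF-kB and cytokine genes and for 7 of 20 interferon and antigen presentation genes, and right of it for 7 of 19 cholesterol genes and 6 of 10 histone genes.

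More cholesterol synthesis genes lay above the parental pair than below it. Of 19 that passed the level rule, 7 lay above both parental arrays and 0 below, also after centring. The shares over all genes were 17.2% above and 8.39% below. The medians over 20 measured members were 0.30 from F0 (1) and 0.90 from F0 (2). INSIG1 is given above, and DHCR7, the last reductase of the pathway, stood at 10.19, 8.84 and 11.45. SQLE, squalene epoxidase, stood at 5.87, 9.51 and 10.35, so it lay 0.84 above parental arrays that were themselves far apart. MVK, LSS, NSDHL and HSD17B7, enzymes along the pathway, lay above both by 0.24 to 0.35. HMGCS1, an early enzyme of the pathway, stood at 5.82, 10.17 and 9.37, and it was 1 of 12 genes between the parental arrays.

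Fatty acid genes lay mostly between the parental arrays. Of 18 fatty acid and glyceride synthesis genes, 6 lay above both parental arrays, 1 below and 11 between, none beyond 2-fold. The list medians were 0.44 from F0 (1) and 0.16 from F0 (2), the second under the 0.33 of all genes. ACSS2, which makes acetyl-CoA from acetate, stood at 7.85, 6.72 and 8.79, and fatty acid synthase (FASN) at 9.36, 8.09 and 9.80. The gene below was SREBF1, the regulator of the pathway, at 8.33, 8.42 and 8.01. Of 14 fatty acid oxidation and PPARA target genes, 4 lay above both and 2 below, and the 2 below were the ones beyond 2-fold. CPT1A, which commits fatty acids to mitochondria, stood at 8.09, 8.71 and 6.84, and on F12 at 9.23. Another CPT1A probeset passing the level rule lay between the parental arrays (7.54, 5.80 and 6.04), and stood at 6.25 on F12. FABP1, the liver fatty acid binding protein, stood at 12.26, 13.06 and 11.14. Of 12 apolipoprotein and lipoprotein assembly genes, 4 lay above both and 2 below, among them APOM (10.65, 7.95 and 11.20) and APOH (10.82, 12.17 and 10.14). Of 4 bile acid genes passing the level rule, 1 lay above both, NR0B2, by 0.09.

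Wnt target genes lay mostly above or between the parental arrays, apart from 2 lectins. Of 17 that passed the level rule, 7 lay above both parental arrays, 2 below and 8 between. The 2 below were the lectins REG1A and REG3A. Among the 8 between were AXIN2, LEF1, NOTUM, NKD2 and DKK1. TBX3, a transcription factor of liver tumors with active beta-catenin, stood at 6.85, 6.83 and 7.98, and SP5, a direct Wnt target, at 5.87, 4.76 and 6.90. GLUL, glutamine synthetase, stood at 11.69, 11.39 and 12.64. LGR5, a receptor for R-spondins, stood at 2.63, 6.29 and 6.98, above parental arrays that were far apart. The medians over 22 measured members were 0.09 from F0 (1) and 0.46 from F0 (2). After centring 7 lay above both and 3 below, so the genes below were then not only lectins.

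MAPK output genes held no 2-fold distance, and more lay above than below, as did all genes (17.2% above and 8.39% below). Of 17, 7 lay above both parental arrays and 0 below, or 6 and 1 after centring, with medians of 0.37 and 0.64. DUSP5, a phosphatase that shuts off ERK, stood at 9.92, 9.22 and 10.65, and ETV5, an ERK-induced transcription factor, at 8.09, 9.08 and 9.75. The feedback inhibitors SPRY2 and SPRY4 lay above both by 0.58 and 0.51. Of the receptors upstream, FGFR1 stood at 8.37, 8.37 and 8.84. NRG1, a ligand of ERBB receptors, stood at 3.86, 5.31 and 6.72 on these arrays and at 9.47 on F12. These values rest on 1 probeset, and its other probesets were under 6 on every array. The other 6 ERBB genes passing the level rule lay between the parental arrays. Of 6 FGF19 and FGF receptor genes, 2 lay above both, FGFR1 and FGFR3.

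The kinases that the named drugs act on lay mostly within the parental range. Of 14 VEGF, aurora and sorafenib target kinases measured, 6 passed the level rule, 1 lay above both parental arrays (FGFR1) and 0 below. KDR, the main VEGF receptor of vessels, was close to background at 2.93, 2.49 and 2.83, FLT1 stood at 6.12, 5.83 and 6.07, and FLT4 at 5.82, 4.69 and 5.30. AURKA stood at 7.92, 10.80 and 10.45 and AURKB at 11.40, 9.02 and 10.61, each between parental arrays over 4-fold apart. VEGFA stood at 8.10, 11.27 and 9.30, and 2 of 7 VEGF ligand and angiogenic genes lay above both, ANG by 0.57 and PDGFA by 0.05.

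BMP pathway genes held 5 of 13 above both parental arrays and 0 below, or 4 and 0 after centring. The shares over all genes were 17.2% above and 8.39% below. ID4, an inhibitor of helix-loop-helix factors, stood at 6.29, 6.47 and 7.82, against 5.36 on F12. TGFBI, a matrix protein induced by TGF-beta, stood at 9.48, 9.20 and 11.07. SMAD7, an inhibitor of the pathway, lay above both by 0.39. Of 9 Hippo and YAP target genes, 3 lay above both and 1 below, none by more than 0.38, and of 7 insulin-like growth factor genes 1 lay below both, IGFBP3 at -0.48, and 0 above.

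Hepatocyte products lay on different sides gene by gene. Of 12 secreted liver protein genes, 3 lay above both parental arrays and 1 below, each beyond 2-fold. SERPINA1, alpha-1 antitrypsin, stood at 12.43, 11.20 and 13.82, AHSG, fetuin-A, at 9.91, 9.45 and 11.29, and AGT, angiotensinogen, at 10.61, 10.38 and 11.77. The gene below was SERPINA7. Albumin (ALB) stood at 10.18, 13.75 and 12.41 and the fetal protein AFP at 8.88, 13.73 and 11.95, both between the parental arrays. Among 12 oncofetal and progenitor liver genes, SALL4 and SOX9 lay above both and SPINK1, a trypsin inhibitor, below both (12.81, 12.00 and 11.43). Of 14 hepatocyte transcription factors, 4 lay above both and 1 below, at most 0.32 away.

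Drug-handling genes were divided as well. Of 14 drug metabolism genes, 3 lay above both parental arrays and 3 below, or 2 and 4 after centring. CYP2B6 was the 1 gene 2-fold above, and CES1 and SULT2A1, a steroid sulfotransferase (7.29, 8.90 and 6.16), were 2-fold below. Another SULT2A1 probeset passing the level rule lay below both by less, at -0.29 (6.13, 9.24 and 5.84). On F12 the first SULT2A1 probeset stood at 9.61, above both parental arrays. Of 11 drug and bile transporters, 1 lay above both and 3 below. ABCG8, a subunit of the sterol exporter, stood at 4.96, 3.94 and 6.39, from parental signals close to background. ABCC3, an organic anion exporter, stood at 7.56, 8.52 and 6.43. Another ABCC3 probeset passing the level rule lay at only -0.14 (7.70, 6.69 and 6.56).

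Among amino acid enzymes, several lay above both parental arrays. Of 16 urea cycle and amino acid breakdown genes, 6 lay above both, 2 below and 8 between, or 5 above and 2 below after centring. Across all genes, 17.2% lay above both and 8.39% below. The list median of 0.37 from F0 (2) was close to the 0.33 of all genes, and that from F0 (1) was 0.12. GOT2, the mitochondrial aspartate aminotransferase, stood at 10.34, 9.80 and 11.53, and SLC25A15, the mitochondrial ornithine carrier, at 8.80, 8.62 and 9.93. GOT1, the cytosolic partner of GOT2, stood at 10.72, 10.33 and 11.46. PHGDH, the first enzyme of serine synthesis, stood at 11.37, 10.87 and 12.61. Of 12 amino acid transporters, 4 lay above both and 0 below, by at most 0.72 (SLC7A9).

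Among actin and galectin genes, TMSB4X was far from its relatives. Of 12 thymosin and actin monomer-binding genes, 6 lay above both parental arrays and 2 below, or 5 and 2 after centring. All genes had shares of 17.2% above and 8.39% below. TMSB10, the other abundant beta-thymosin, stood at 13.22, 13.24 and 13.70, and WASF2, which drives actin branching, at 8.69, 8.99 and 9.92. GSN, gelsolin, lay below both at -0.42. Of 7 galectin genes and partners, LGALS1 lay above both and 3 lay below. LGALS3, galectin-3, stood at 11.58, 10.99 and 9.34, a distance of -1.66 from strong parental signals, alongside LGALS14 and LGALS3BP. LGALS1 and LGALS3 thus stood on opposite sides of the parental pair.

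Epithelial and mesenchymal genes both held members above the parental pair, where 17.2% of all genes lay. Of 16 epithelial genes, 4 lay above both parental arrays and 0 below, with CLDN4, a tight junction claudin, at 5.79, 4.89 and 7.29. Of 9 mesenchymal genes, 3 lay above both and 0 below, or 2 and 0 after centring, with TGFBI beyond 2-fold and vimentin (VIM) at 11.25, 10.58 and 11.87. Beside them, the log2 signals of the 12 fibroblast markers summed to 58.8, 52.3 and 54.0, and TAGLN, the 1 marker at 6 or above on F6, lay between the parental arrays. Whether these human probes read mouse fibroblasts was not tested.

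Of 10 core and linker histone genes passing the level rule, 6 lay above both parental arrays and 0 below, or 6 and 1 after centring. In all genes the shares were 17.2% above and 8.39% below. The histone medians were 0.19 from F0 (1) and 1.66 from F0 (2). The linker histone H1-2 stood at 10.39, 8.79 and 11.46, the core histone genes H2BC12 at 11.24, 10.16 and 12.56 and H2AC6 at 7.81, 7.15 and 9.57. Histone copies are near identical in coding sequence, so probes may read several of them.

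Replication and mitotic genes held members above both parental arrays, within wide parental gaps. Among all genes, 17.2% lay above both and 8.39% below. Of 36 DNA replication genes, 8 lay above both and 2 below. GINS3, a subunit of the replicative helicase complex, stood at 6.50, 6.98 and 8.02, ORC1, of the origin recognition complex, at 7.28, 7.64 and 8.59, and the ribonucleotide reductase subunit RRM2 at 11.13, 10.92 and 11.73. Of 34 mitotic genes, 8 lay above both and 0 below, or 7 and 1 after centring. TPX2, which activates aurora A on the spindle, stood at 9.25, 9.95 and 11.27. CCNB1, cyclin B1, stood at 10.86, 10.58 and 11.56. The mitotic medians had opposite signs, 1.78 from F0 (1) and -1.15 from F0 (2), and 26 of the 34 genes lay between the parental arrays. Of 15 DNA methylation and Polycomb genes, 2 lay above both and 3 below, at distances from -0.32 (EZH1) to 0.30 (DNMT3B).

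Stress and sugar metabolism genes lay on either side. Of 26 unfolded protein and integrated stress response genes, 5 lay above both parental arrays and 6 below. PHGDH was the gene 2-fold above, and DDIT3, the stress transcription factor CHOP, was the gene 2-fold below, at 9.25, 9.66 and 8.08. MANF, a stress-induced protein of the endoplasmic reticulum, stood at 10.55, 11.45 and 9.85. Of 20 glycolysis and gluconeogenesis genes, 4 lay above both and 3 below. The 3 below were PFKFB3, its relative PFKFB4 (10.02, 9.31 and 8.43) and the glucose importer SLC2A1 (7.88, 7.51 and 6.80). Of 18 hypoxia genes, 1 lay above both and 3 below, with NDRG1, a stress-induced growth regulator, at 11.91, 11.50 and 10.52.

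Of 11 p53 target genes, SFN lay above both parental arrays and SESN2 and CDKN1A below both. CDKN1A, the cell cycle inhibitor p21, stood at 9.63, 8.44 and 7.71. CDKN1C, an imprinted inhibitor of the same class, stood at 5.26, 4.26 and 6.68, from parental signals close to background. Its other probeset lay between the parental arrays (5.63, 4.30 and 5.23). Of 9 imprinted genes passing the level rule, 1 lay above both (CDKN1C) and 1 below (GRB10). Of 18 BCL2 family and death genes, 1 lay above both and 1 below (BCL2L2, at 7.05, 8.25 and 6.45). Of 17 immediate early and heat shock genes, which respond to tissue handling, 1 lay above both and 2 below, FOS at -0.75 and JUN at -0.43.

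Of 24 NRF2 target and glutathione genes, 5 lay above both parental arrays and 2 below, or 2 and 2 after centring. Of 11 metallothionein genes, MT1M and MT1E lay above both, MT1E by only 0.05. Of 11 iron genes, 2 lay above both and 1 below, with ACO1, the iron-regulatory aconitase, at 7.00, 8.26 and 9.29. Of 3 creatine genes, SLC6A8 alone lay outside the parental pair. Of 25 respiratory chain genes, 4 lay above both and 3 below, or 2 and 3 after centring, with UQCRB, a subunit of complex III, at 11.02, 12.25 and 10.40. Of 21 cytosolic ribosomal protein genes, 0 lay above both and 7 below, or 0 and 8 after centring, where all genes had 17.2% and 8.39%. The largest distance within this list was that of RPS27, -0.36. RPL34, a cytosolic ribosomal protein gene that the list left out, lay at -1.46.

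**Figure D4:**
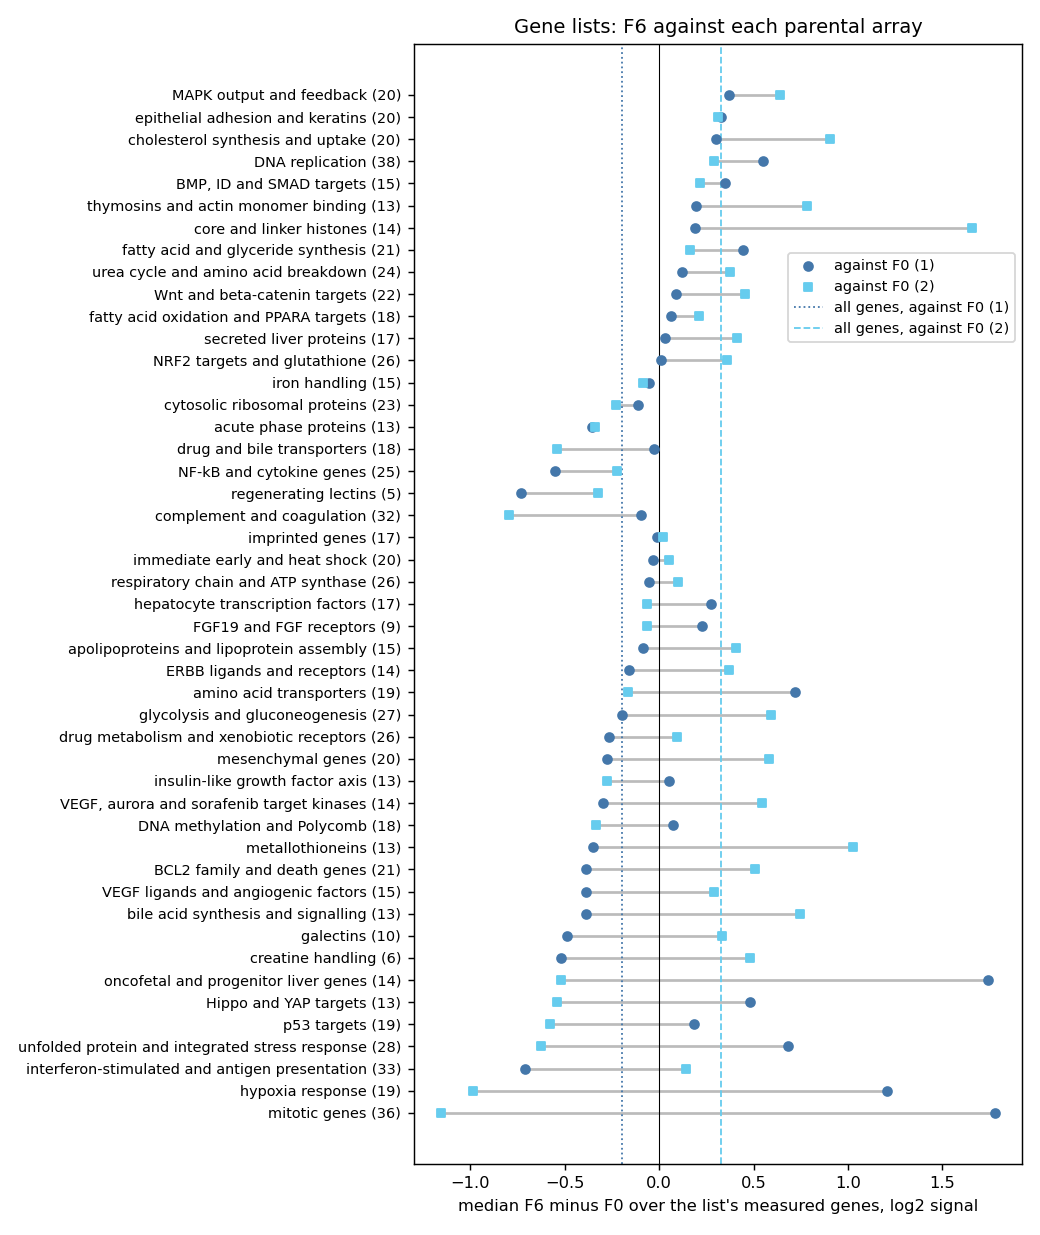
Median F6 minus F0 (1) (circle) and F6 minus F0 (2) (square) over the measured genes of each of 47 lists, log2 scale, with the number of genes in brackets and the medians over all 19775 genes (-0.20 and 0.33) as dotted and dashed lines. The cholesterol, MAPK and histone medians lie right of 0 for both comparisons, the NF-kB and acute phase medians left of 0 for both, and the mitotic medians on opposite sides.

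Centring moved the count above or below by 1 gene in 12 further lists: Hippo, secreted liver proteins, oncofetal genes, hepatocyte transcription factors, insulin-like growth factor, glycolysis, stress response, metallothioneins, p53, BCL2 family, DNA methylation and bile acid genes. The 1 bile acid gene and the 1 BCL2 family gene above both were no longer so.

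The members differed in how firmly they were read. Of the 108 genes at least 2-fold above both parental arrays, 59 had parental arrays within 0.5 of each other, and for 91 the distance of F6 was larger than the parental gap. Of the 81 below, these numbers were 35 and 68. The parental signal was under 6 on both F0 arrays for 27 of the 108, and the F6 signal was under 6 for 30 of the 81. Some of the 27, such as ICAM4 and BEX1, were also among the 59, so their parental arrays were close near background. Just inside the 2-fold bound lay PRAG1, at 1.0034 above, and HTRA1, at 1.0006 below, and just outside lay MTHFD1, at 0.9985, and C8A, at 0.9955. Over all 1605 genes above, the median distance was 0.29, and over the 782 below it was -0.29.

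Other probesets of the same genes gave a second reading on the same arrays. For the 108 genes above, 42 other probesets passed the level rule, and 29 of them lay above both parental arrays, 13 between and 0 below. For the 81 genes below, 21 other probesets passed it, and 15 lay below both, 5 between and 1 above. These readings share the RNA of the first and are not replicates.

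Genes at least 2-fold below the parental pair were shorter at the median than other genes, with long genes among them. RefSeq gene spans, from start to end of the gene, had a median of 25.6 kilobases over 9323 genes passing the level rule, 24.2 over the 108 genes at least 2-fold above and 9.53 over the 81 at least 2-fold below. Under 10 kilobases were 24.3% of all, 31.5% of the 108 and 53.1% of the 81. ADGRV1, at 605.6 kilobases, and SYBU, at 117.6, were among the long genes below. Besides chemokines and lectins, the short genes below included RPL34, a ribosomal protein (12.57, 13.11 and 11.11), SF3B6, a splicing factor subunit (10.83, 11.78 and 9.54), and RPS27L, a relative of a ribosomal protein (11.02, 12.48 and 9.98). The last 3 were chosen after their values were seen. For all 782 genes below both, the median was 18.2, and for all 1605 above it was 29.2.

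Some members were neighbours on a chromosome. REG1A and REG3A on chromosome 2 had 0 measured genes between them, and CXCL1 and CXCL3 on chromosome 4 had 3. BUD13 (7.20, 7.20 and 8.21), ZPR1 (8.20, 8.04 and 9.42) and SIK3 (6.86, 7.05 and 8.53) lie close together on chromosome 11 and were all at least 2-fold above. There were 0 measured genes between BUD13 and ZPR1 and 4 between ZPR1 and SIK3. Another SIK3 probeset passing the level rule lay between the parental arrays (4.66, 8.02 and 7.51), and a further one lay above both by only 0.03. GINS3, NDRG4 (6.91, 5.03 and 8.07) and GOT2 lie close together on chromosome 16 and were also all above, with 0 measured genes between GINS3 and NDRG4 and 3 between NDRG4 and GOT2. The measured genes in between, here and on chromosome 11, were not themselves beyond 2-fold under the level rule. By chromosome, the share of genes above both parental arrays ran from 11.2% on chromosome 19 to 23.4% on chromosome 20 among autosomes, against 17.2% over all, with 22.5% on chromosome 11.

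In limma, with the F0 pair as the only source of error, 0 of 19775 genes (0%) passed an adjusted p of 0.05 in the comparison of F6 with F0. Without adjustment, p was under 0.05 for 7 genes. The smallest unadjusted p was 0.00592, for TMSB4X, with an adjusted p of 1 (limma, Benjamini-Hochberg). The pooled standard error was 1.74 for every gene, whatever its own parental gap. With 1 F6 array, no distance above has a replicate check.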

How the data were processed

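Expression was measured on 4 human 3′ expression arrays, 1 per sample: 2 of F0 and 1 each of F6 and F12. The deposited values are log2 signals per probeset, made by the authors with RMA in the affy package per the submitters' processing notes. RMA corrects background, brings the probe signals of the arrays to 1 distribution and summarizes probes, which can compress differences near background. The deposited probeset values were not on 1 distribution, with upper quartiles from 6.33 on F0 (1) to 6.96 on F0 (2). Software versions: not given in the sources used here. Arrays carry no read depth, and precision is limited by their number.

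Values cover 54613 probesets, of which the platform annotation named 41091 with 1 gene symbol, 1801 with several and 11721 with none. Each gene was read from its brightest probeset over the 4 arrays, passing over cross-hybridizing (_x_at) probesets except for 419 genes that have no others. By Entrez number, 41037 probesets matched RefSeq (GRCh38.p14), which gave spans and promoters.

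F6 was set against each F0 array. A distance is F6 minus the nearer F0 array on the log2 scale, and 0 when F6 lies between them. The text names the 15 genes farthest above and below, the 10 farthest among genes with F0 arrays within 0.5, and list members beyond 2-fold. Other list members stand as examples. Members, the 47 pathway lists and the 7 marker lists were chosen with earlier results of these data known. A limma 3.58.1 fit in R 4.3.3 (lmFit, eBayes, Benjamini-Hochberg) had 3 groups and 1 residual degree of freedom, so the spread of F6 is taken from the F0 pair. The error behind the p-values therefore reflects only how far the F0 samples differ, which may be technical. Since that error is the same for every gene, the p-values order genes by the size of the F6 difference from the F0 mean. The fit was also run on simulated data with a far smaller spread than the parental gap here, so that run does not show how the fit performs on these arrays. Alternatives covered the level minimum, the probeset rule, centring, a linear adjustment and each F0 array left out.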

Additional observations from a re-analysis of the deposited data

Results flagged for a closer look

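Of the 189 genes at least 2-fold beyond both parental arrays on F6, 27 lay beyond the same 2 arrays on the opposite side on F12, 23 of them above on F6 and 4 below. Among the 70 genes named by distance or as list members beyond 2-fold, 10 did so. Above on F6 were GTF2I (2.16, with an F12 distance of -0.44), INSIG1 (2.04 and -0.37), ID4 (1.35 and -0.93) and TPX2 (1.33 and -0.30). So were the histone genes H1-2 (1.07 and -0.79) and H2BC12 (1.32 and -0.051), the Wnt target TBX3 (1.13 and -0.25) and the ornithine carrier SLC25A15 (1.13 and -0.067). Below on F6 were CPT1A (-1.24, with an F12 distance of 0.53) and SULT2A1 (-1.12 and 0.71). Another CPT1A probeset lay between the parental arrays (7.54 and 5.80) on both F6 (6.04) and F12 (6.25). A second SULT2A1 probeset lay at -0.29 on F6 and stood at 9.96 on F12, above both parental arrays (6.13 and 9.24). Each is 1 array against 1 array, and the differences between F6 and F12 were not tested.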

How the results depend on the processing

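The 108 genes at least 2-fold above and the 81 below both parental arrays became 111 and 98 with a level minimum of 5, 92 and 65 with 7, 114 and 111 with no minimum, and 86 and 56 with the mean of each gene's probesets, which kept 63 of the 108 and 52 of the 81. Requiring every probeset of a gene on the same side left 67 above and 54 below. Centring the arrays turned the split to 82 above and 101 below, with 82 of the 108 and all 81 kept. As residuals from a linear fit on both F0 arrays, 305 genes were 2-fold higher and 254 lower, and 25 and 39 were 4-fold higher and lower. With 1 F0 array left out, so that F6 is set against the other alone, the 2-fold counts ran from 2378 to 2702 above and from 630 to 3707 below, and the 4-fold counts from 380 to 1214 above and from 47 to 2122 below. Without F0 (1) the 2-fold counts were 2378 and 3707, and without F0 (2) 2702 and 630. With the mean of probesets, 8 of the 39 genes named by distance moved, and 4 of them came under 2-fold: LOXL4 (0.60), PITRM1 (0.69), ADGRV1 (-0.49) and SLC43A3 (-0.26). PIGR came to -1.01. None of the 39 changed side with centring or with the mean of probesets, and leaving out an F0 array could not change the side of genes chosen beyond both. The limma count was 0 under its 4 alternatives, with 4 to 15 unadjusted p-values under 0.05. No paired analysis was possible because F6 has 1 array and the F0 numbers are shared with no other group.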

Other observations

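Several genes beyond 2-fold stood outside the lists, and the ones named here were chosen after their values were seen. Lower on F6 were SOCS3, a feedback inhibitor of cytokine receptors (7.79 on F0 (1), 6.66 on F0 (2) and 5.20 on F6), and CEBPD, a cytokine-induced transcription factor (11.35, 10.78 and 9.72). The other SOCS3 probesets did not pass the level rule and lay between the parental arrays. The vasoconstrictor EDN1 stood at 7.73, 9.31 and 6.44 and the stress protein NUPR1 at 9.67, 10.84 and 8.31. The antimicrobial peptides LEAP2 (8.87, 8.68 and 7.43) and DEFB1 (10.78, 10.91 and 9.58) were lower as well, from strong and close parental signals. On F12 DEFB1 stood at 11.41, above both parental arrays.

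Higher on F6 were the Notch target HES1 (8.50, 8.40 and 9.52), the insulin-regulated factor FOXO1 (5.79, 5.88 and 6.94) and the amine oxidase MAOB (9.74, 9.27 and 11.03). TIMP1, a metalloproteinase inhibitor, stood at 5.50, 3.98 and 6.64. HABP2, a plasma protease, stood at 7.25, 6.69 and 9.02, and OLFML3, a secreted matrix protein, at 6.80, 4.81 and 8.57. ND2, encoded by the mitochondrial genome, stood at 11.87, 11.87 and 12.92. Of 7 genes of that genome passing the level rule, 4 lay above both parental arrays, against 17.2% of all genes, and 1 (ND2) by 2-fold.

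The last 3 genes, also chosen after their values were seen, had F12 signals closer to the parental arrays than those of F6. SLIRP, a mitochondrial RNA-binding protein, stood at 10.94, 11.61 and 9.40, with 11.28 on F12. LSM8, a splicing factor subunit, stood at 8.94, 9.39 and 7.48, with 9.61 on F12. MRPS18C, a mitochondrial ribosomal protein, stood at 9.95, 9.81 and 8.43, with 9.71 on F12. RNA quality measures per sample were not analysed here.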
